A study of Homo sapiens with 12 samples.

Results

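The comparison set 3 cultures that received the γ-secretase inhibitor DAPT for 12 h against 3 cultures that received its solvent DMSO, all grown on plates that carried Fc, which serves as the control for the Notch ligand Jagged1. The cells were DAOY, an established human medulloblastoma line, as wild type (WT) or as CRISPR/Cas9 lines targeted in NOTCH1 (N1KO) or NOTCH2 (N2KO). The 6 libraries were chosen from the 12 of the series by their plate and were paired by genotype. The other 6 libraries came from the same genotypes on Jagged1 plates, with DAPT or DMSO. Each combination of genotype, plate and treatment was 1 library, each knockout was 1 line, and the DAPT cultures of all 3 genotypes differed from their partners, by the labels, in the inhibitor alone. Labels name the Fc cultures with DMSO a steady state and those with DAPT a state with Notch off.

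Notch receptors are activated when a ligand on a neighbouring cell exposes them to successive cuts, the last by γ-secretase, which frees the intracellular domain. That domain enters the nucleus, joins the DNA-binding protein RBPJ (also called CSL) and switches on targets such as the HES and HEY repressors. γ-Secretase has many substrates besides Notch, so that an inhibitor is not specific to 1 receptor, and in cells on a plate without added ligand only ligands made by the cells themselves can activate the pathway. In medulloblastoma, a tumour of the cerebellum, Notch has been linked to progenitor programmes and to the hypoxic response.

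Levels are given as TPM, the number of transcripts of a gene relative to all transcripts of its library after allowing for gene length, with DAPT libraries first and in the order WT, N1KO and N2KO, and as mean ± SD with n = 3. Differences are of log2(TPM + 1), DAPT minus DMSO, and for weakly expressed genes this scale makes a change look smaller than it was. They were tested for 17621 genes with limma in a model with genotype and culture over all 12 libraries, and a gene was called at a Benjamini-Hochberg adjusted p under 0.05. With 1 library per combination the p-values measure how far the libraries depart from additive effects of genotype and culture, not the spread between repeat cultures, and an exact sign-flip test over 3 pairs cannot go below 0.25. The 6 libraries held 18.3 to 22.4 M reads, and 17068 to 17684 genes per library had at least 1 TPM. The N1KO library with DAPT stood apart from the other Fc libraries, with the lowest weight of all 12 when weights were estimated from the fit (0.256, against 4.75 for the N2KO library with DAPT). Its pair had 819 genes lower and 338 higher by at least 1 on the log2 scale, against 303 and 243 in the N2KO pair and 330 and 324 in the WT pair.

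The targeted genes followed their labels. NOTCH1 stood at 0.278 TPM with DAPT and 0.874 with DMSO in N1KO, against 3.10 and 3.32 in WT. NOTCH2 stood at 41.6 TPM with DAPT and 48.0 with DMSO in N2KO, against 74.9 and 74.9 in WT, so that transcripts of the edited gene were still counted there. Of the listed neural markers, SOX9 lay between 19.5 and 35.2 TPM and ZIC1 between 5.84 and 18.8 in all 6 libraries. The neuronal gene TUBB3 lay between 25.3 and 78.9 TPM, PAX6 between 8.59 and 20.5, SOX2 between 2.94 and 4.56 and OTX2 between 1.99 and 5.22. The granule lineage markers ATOH1 and NEUROD1 stayed at or below 0.252. NES ran from 0.462 to 7.26 TPM, and DCX was listed at 0 in all 6 libraries. The leukocyte gene PTPRC, the erythroid gene HBB and the endothelial gene PECAM1 were listed at 0 in all 6 libraries. Other blood and endothelial markers were above 0 in some libraries, with LYZ at up to 1.57 TPM and CDH5 at up to 0.514 TPM.

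DAPT on Fc plates moved few genes past the test. It called 3 genes higher (0.017% of those tested) and 3 lower (0.017%), of which only 2 were ordinary protein-coding genes with reads in every library, ANGPTL2 and COL4A1. Before adjustment, 597 genes were lower (3.39%) and 485 higher (2.75%) at p under 0.05, 1082 in all. That is 6.14% of the genes tested, where 5% would be expected with no difference at all. A gene was lower with DAPT in all 3 genotype pairs for 13.3% of the genes tested and higher in all 3 for 15.8%. The 3 DAPT libraries lay below the 3 DMSO libraries, with no overlap, for 2.3% of genes and above them for 2.45%. These shares are the background for the counts of gene groups given below.

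ANGPTL2 (ENSG00000136859, GRCh37 chromosome 9, 129849611 to 129885162, minus strand), which encodes a secreted angiopoietin-like protein, had 80.3, 14.5 and 39.0 TPM with DAPT, against 131, 33.2 and 91.8 TPM with DMSO. Every genotype was lower with DAPT, though genotypes differed so much in level that the groups overlapped (44.6 ± 33.2 against 85.4 ± 49.3). The log2 difference was -1.02 ± 0.11 (SE), with an adjusted p of 0.0372 and pair differences of -0.70, -1.14 and -1.21. COL4A1 (ENSG00000187498, chromosome 13, 110801318 to 110959496, minus strand), a chain of the basement membrane collagen IV, had 63.4, 93.1 and 33.3 TPM with DAPT and 104, 178 and 58.9 TPM with DMSO. Its log2 difference was -0.81 ± 0.09 (SE, adjusted p = 0.0372), and its pairs differed by -0.71, -0.92 and -0.81. Both calls rested on the full set of libraries. Leaving out any 1 of the 6 ended the call of COL4A1 (adjusted p of 0.127 to 0.289). For ANGPTL2 the call held only without the WT library with DAPT and was lost in the other 5 cases (adjusted p of 0.14 to 0.289).

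**Figure D1:**
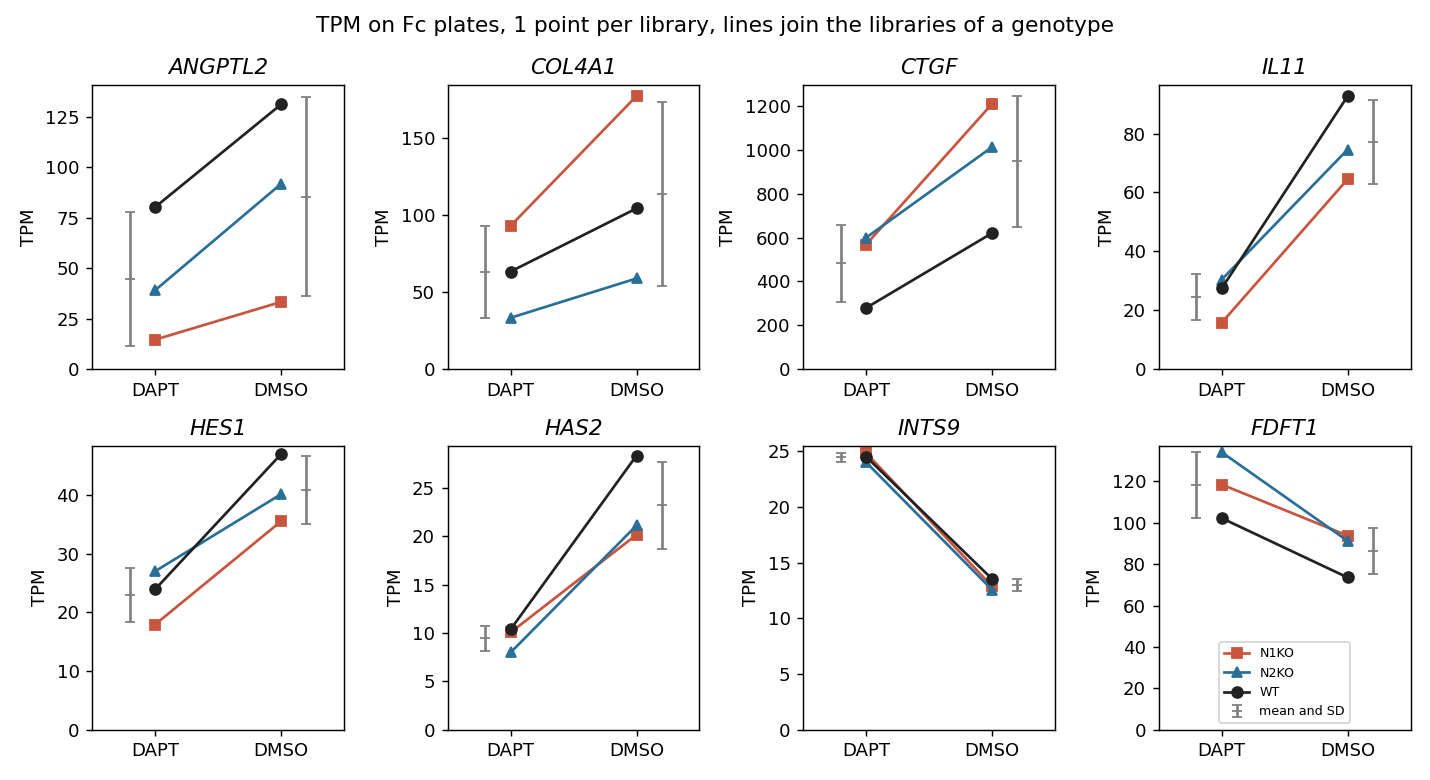
TPM (vertical axis, from 0) of 8 genes in the 6 Fc libraries, 1 point per library, with lines joining the DAPT and DMSO libraries of a genotype and grey bars giving the mean and SD of 3 libraries. COL4A1 stood at 63.4, 93.1 and 33.3 with DAPT and 104, 178 and 58.9 with DMSO, and in HES1, HAS2, CTGF and IL11 the 3 DAPT libraries all lay below the 3 DMSO libraries.

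The other 4 calls were of genes whose reads are able to match similar copies elsewhere. NPIPA2 and NPIPA3, near-identical members of a primate gene family on chromosome 16, were listed at 0 in all 3 DMSO libraries and had 8.17, 10.4 and 7.50 TPM (NPIPA2) and 7.97, 10.5 and 7.45 TPM (NPIPA3) with DAPT. On Jagged1 plates both stood between 6.77 and 9.96 TPM with either treatment, so that the DMSO libraries on Fc were the ones that differed. The 8 NPIPA genes summed to 90.1, 105 and 83.4 TPM with DAPT and 80.1, 84.9 and 69.3 TPM with DMSO. CTD-2210P15.2, a processed pseudogene on chromosome 5, was listed at 0 in the 3 DAPT libraries and at 7.04, 6.68 and 5.93 TPM with DMSO. RP4-706A16.3, a processed pseudogene on chromosome 1, had 389, 418 and 414 TPM with DAPT, against 254, 261 and 256 TPM with DMSO (log2 difference 0.66, adjusted p = 0.0291). How the quantifier assigned reads that match several places is not given in the sources used here. No fold is given for NPIPA2, NPIPA3 and CTD-2210P15.2, which were listed at 0 throughout 1 treatment.

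Short of the test, the smallest p-values belonged mostly to genes that were lower. IL11, an interleukin of the IL-6 family, had 27.4, 15.7 and 30.3 TPM with DAPT and 92.7, 64.5 and 74.5 TPM with DMSO, a log2 difference of -1.66 (95% interval -2.18 to -1.13, adjusted p = 0.108). The hyaluronan synthase HAS2 stood at 10.4, 10.1 and 7.99 TPM with DAPT, against 28.4, 20.2 and 21.1 TPM with DMSO (-1.20, adjusted p = 0.108). CTGF, a matricellular protein, stood at 279, 568 and 599 TPM with DAPT and 620, 1210.3 and 1013 TPM with DMSO (-0.9992, adjusted p = 0.108). In all 3 genes each DAPT library lay below each DMSO library. HTR1D, a serotonin receptor, had 8.84, 20.6 and 10.4 TPM with DAPT and 17.2, 36.2 and 17.8 TPM with DMSO (-0.80, adjusted p = 0.105). It passed the test when coverage replaced TPM (adjusted p = 0.0487).

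INTS9 and CCDC174 were near to a rise. INTS9, a subunit of the Integrator complex, had 24.5, 24.9 and 24.0 TPM with DAPT and 13.5, 12.9 and 12.6 TPM with DMSO (0.86, adjusted p = 0.108). CCDC174 had 12.3, 14.3 and 10.6 TPM with DAPT and 6.47, 6.59 and 7.92 TPM with DMSO (0.74, adjusted p = 0.22). Coverage is the mean read depth per base, scaled here to a common total per library. On coverage the differences shrank to 0.13 for INTS9 and 0.23 for CCDC174. That of EARS2, a mitochondrial tRNA synthetase that was lower on TPM (-0.84), shrank to -0.19. Those 3 were the only ones of 27 genes followed here with an unadjusted p under 0.001 that fell below 0.5 of their TPM difference on coverage, whereas ANGPTL2, COL4A1 and IL11 had -0.89, -0.86 and -1.77 there. ANGPTL2 did not pass the test on coverage (adjusted p = 0.0982). FDFT1, also higher without being called (limma adjusted p = 0.237 on TPM), kept its difference, with 0.40 on coverage beside 0.45 on TPM. The reason for the gap between the scales was not tested.

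Promoter windows of 4 genes that were lower are shown because their families are known for different transcription factors: HES1 for Notch with RBPJ, CTGF for TEAD proteins, IL11 for AP-1, and COL4A1 for a start region shared with its partner. They are RefSeq sequences on GRCh38.p14, from 250 bases before to 50 bases after the start, read in the direction of the gene, and capitals mark the motif searched on both strands.
HES1 (chr3:194135898-194136197, plus strand, capitals TGGGAA, the RBPJ core): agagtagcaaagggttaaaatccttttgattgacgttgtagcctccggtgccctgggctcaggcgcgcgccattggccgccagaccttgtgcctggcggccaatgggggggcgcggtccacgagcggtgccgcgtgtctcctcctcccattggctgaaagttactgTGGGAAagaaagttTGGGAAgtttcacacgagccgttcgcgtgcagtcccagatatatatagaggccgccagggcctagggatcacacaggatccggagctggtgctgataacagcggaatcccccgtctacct
CTGF (chr6:131951323-131951622, minus strand, capitals GGAATG, the TEAD core): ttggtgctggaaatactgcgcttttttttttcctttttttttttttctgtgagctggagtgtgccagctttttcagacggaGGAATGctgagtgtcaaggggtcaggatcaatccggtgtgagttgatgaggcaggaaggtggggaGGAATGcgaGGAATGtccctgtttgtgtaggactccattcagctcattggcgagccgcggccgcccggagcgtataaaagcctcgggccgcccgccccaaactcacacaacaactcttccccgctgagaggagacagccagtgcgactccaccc
IL11 (chr19:55370414-55370713, minus strand, capitals TGACTCA or its reverse complement, the AP-1 element): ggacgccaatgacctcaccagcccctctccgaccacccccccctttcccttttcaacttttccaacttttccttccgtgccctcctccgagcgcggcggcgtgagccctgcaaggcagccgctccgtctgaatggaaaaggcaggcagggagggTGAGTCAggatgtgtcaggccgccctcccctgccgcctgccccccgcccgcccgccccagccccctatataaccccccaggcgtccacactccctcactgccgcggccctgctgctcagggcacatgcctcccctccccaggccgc
COL4A1 (chr13:110307108-110307407, minus strand, capitals GGGCGG or its reverse complement, the GC box): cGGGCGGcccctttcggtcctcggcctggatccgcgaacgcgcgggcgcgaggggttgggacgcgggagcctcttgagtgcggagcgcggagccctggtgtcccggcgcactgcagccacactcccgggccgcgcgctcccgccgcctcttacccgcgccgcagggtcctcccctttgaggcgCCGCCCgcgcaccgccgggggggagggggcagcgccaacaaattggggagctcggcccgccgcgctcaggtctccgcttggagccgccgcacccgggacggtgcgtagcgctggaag
The HES1 window held 2 copies of the RBPJ core, beginning 84 and 70 bases before the start, and the CTGF window 3 copies of the TEAD core, beginning 169, 104 and 95 bases before it. The IL11 window held 1 AP-1 element and the COL4A1 window 2 GC boxes. GC boxes were not particular to COL4A1: the IL11 window held 4 and the CTGF window 3, not capitalised there. Of 35116 RefSeq promoter windows, 24.0% held the RBPJ core, 14.0% the TEAD core, 4.95% the AP-1 element and 45.0% the GC box. The RBPJ and TEAD cores can overlap, which they did in none of the 4 windows. The COL4A1 window shared 226 of its 300 bases with that of COL4A2, which starts on the other strand. Among 24 of the 29 listed Notch targets that had a window, 8 held the RBPJ core. These matches describe letters only.

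Genes of the Notch pathway were lower in part. Of 22 Notch targets tested, 0 were called, 11 were lower in all 3 pairs (13.3% of all genes were) and 1 was higher, and the median log2 difference was -0.31, against 0.0031 over all genes. HES1, the repressor through which much of Notch signalling acts, had 23.9, 17.9 and 27.0 TPM with DAPT, against 47.0, 35.5 and 40.2 TPM with DMSO. Its groups did not overlap, and the log2 difference of -0.82 ± 0.12 (SE) missed the test with an adjusted p of 0.131. JAG1, both a ligand and a target, had 14.3, 13.5 and 50.1 TPM with DAPT and 46.9, 46.2 and 82.6 TPM with DMSO (-1.35, adjusted p = 0.609). The gap was widest in WT and N1KO, and the N2KO library with DAPT lay above the DMSO libraries of both. The repressor gene HEY1 stood at 7.50, 4.64 and 10.1 TPM with DAPT and 11.5, 7.85 and 11.04 TPM with DMSO (-0.44, adjusted p = 0.901). HEY2 stood at 1.94, 1.60 and 1.29 TPM with DAPT and 2.61, 2.86 and 1.31 TPM with DMSO (-0.29, adjusted p = 0.889).

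Feedback genes, receptors and processing genes followed, none of them called. NRARP, a feedback inhibitor, had 2.82, 3.22 and 3.02 TPM with DAPT and 3.38, 4.49 and 3.995 TPM with DMSO (-0.30, adjusted p = 0.861), groups that did not overlap. HES4 was listed at 0 in both N1KO libraries and lay between 1.60 and 2.35 TPM in the other 4. NOTCH3 was at 0.126, 0.107 and 1.33 TPM with DAPT, against 1.72, 1.79 and 0.246 TPM with DMSO, lower in WT and N1KO and higher in N2KO (-0.57, 95% interval -2.31 to 1.18, adjusted p = 0.94). NOTCH2 had 74.9, 109 and 41.6 TPM with DAPT and 74.9, 107 and 48.0 TPM with DMSO. Its fitted difference over the 3 genotypes was -0.06 (95% interval -0.39 to 0.27). Of 35 genes for processing and nuclear cofactors, 9 were lower in all 3 pairs and 2 higher (13.3% and 15.8% of all genes), with a median of -0.06. FURIN, the protease that makes the first cut in the receptors, differed by -0.63 (adjusted p = 0.734) and the ubiquitin ligase gene MIB2 by -0.94 (adjusted p = 0.844), both with their widest gap in N1KO.

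Subunits of the inhibited enzyme differed little. Of the subunits of γ-secretase, NCSTN stood at 163, 223 and 141 TPM with DAPT and 163, 147 and 170.2 TPM with DMSO. Differences of NCSTN, PSEN2, APH1A and PSENEN ran from -0.21 to 0.23, with adjusted p-values of 0.83 to 0.953. RBPJ differed by 0.05 (95% interval -0.50 to 0.61). Among 35 γ-secretase substrates other than Notch, 5 were lower in all 3 pairs and 4 higher, both close to or below the background, with a median of -0.02.

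Matrix genes held the only listed member that was called. Of 31 collagen and basement membrane genes, 1 was called lower (COL4A1), 17 were lower in all 3 pairs (against 13.3% of all genes) and 2 were higher, and the median was -0.35, with -0.48 in the N1KO pair, -0.33 in the N2KO pair and -0.32 in the WT pair. COL4A2, the chain that assembles with COL4A1, had 87.0, 77.4 and 74.4 TPM with DAPT and 113, 171 and 107 TPM with DMSO, without overlap (-0.68, adjusted p = 0.566). COL1A1, a chain of fibrillar collagen I, had 502, 358.6 and 440.3 TPM with DAPT and 678, 881 and 604 TPM with DMSO (-0.73, adjusted p = 0.718). Without the N1KO library with DAPT the difference of COL1A1 was -0.38. COL1A2, its partner chain, had 409, 308 and 281 TPM with DAPT and 532, 429 and 372 TPM with DMSO (-0.42, adjusted p = 0.504). Fibronectin, FN1, one of the most abundant transcripts, had 2675, 4492 and 2079 TPM with DAPT and 4109, 5865 and 2857 TPM with DMSO (-0.49, adjusted p = 0.341). COL12A1 and COL8A1 were the 2 that were higher in all 3 pairs, by 0.37 and 0.21.

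Fibroblast and mesenchymal lists shared several of these members. Of 10 fibroblast markers tested, 6 were lower in all 3 pairs and 0 higher (13.3% and 15.8% of all genes), with a median of -0.40. Of the 10, 3 were collagens of the matrix list. The summed level of the 12 listed genes ran from 1036 to 1333 TPM with DAPT and from 1339 to 1762 TPM with DMSO, without overlap, and the part of these markers in the matrix differences was not tested. DPT, a matrix protein, stood at 0.505, 0.366 and 0 TPM with DAPT and 3.25, 1.74 and 0.943 TPM with DMSO (-1.15, adjusted p = 0.556). PDGFRB, a growth factor receptor, was at 5.28, 11.5 and 5.17 TPM with DAPT and 10.7, 25.7 and 6.26 TPM with DMSO (-0.75, adjusted p = 0.872). Among 17 EMT genes, 6 were lower in all 3 pairs and 0 higher (13.3% and 15.8% of all genes), and the median was -0.32. The actin-binding gene TAGLN had 17.2, 17.9 and 7.30 TPM with DAPT and 25.7, 39.2 and 26.2 TPM with DMSO (-1.12, adjusted p = 0.212). On coverage its difference was -0.59.

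TGF-β responsive genes showed a similar count. Of 34 members of the TGF-β and BMP pathway, 0 were called, 16 were lower in all 3 pairs and 0 higher (13.3% and 15.8% of all genes), and the median was -0.20. PMEPA1, a TGF-β induced inhibitor of SMAD signalling, had 43.1, 53.6 and 58.6 TPM with DAPT and 70.9, 94.7 and 117 TPM with DMSO (-0.83, adjusted p = 0.143). SKIL, a SMAD co-repressor, had 20.6, 28.1 and 27.7 TPM with DAPT and 31.5, 49.3 and 52.2 TPM with DMSO (-0.76, adjusted p = 0.212). Both were without overlap between treatments. INHBA, a subunit of activin, had 149.7, 416 and 310.0 TPM with DAPT and 328, 740.1 and 406 TPM with DMSO (-0.78, adjusted p = 0.535). The ligand gene TGFB2 stood at 6.42, 27.3 and 15.3 TPM with DAPT and 9.05, 37.7 and 19.6 TPM with DMSO (-0.41, adjusted p = 0.794). ID3, an inhibitor of helix-loop-helix factors and a target of BMP, differed by -0.83 in the N1KO pair, -0.28 in the N2KO pair and -0.33 in the WT pair (-0.48, adjusted p = 0.775, and -0.23 without the N1KO library with DAPT). CYR61, which belongs with CTGF to the CCN family, had 402, 497 and 794 TPM with DAPT and 422, 574 and 786 TPM with DMSO (-0.09, 95% interval -0.41 to 0.24). IGFBP3, a binding protein for insulin-like growth factors named after its values were seen, had 81.5, 64.1 and 67.3 TPM with DAPT, against 134, 107 and 183 TPM with DMSO (-0.96, adjusted p = 0.17).

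**Figure D2:**
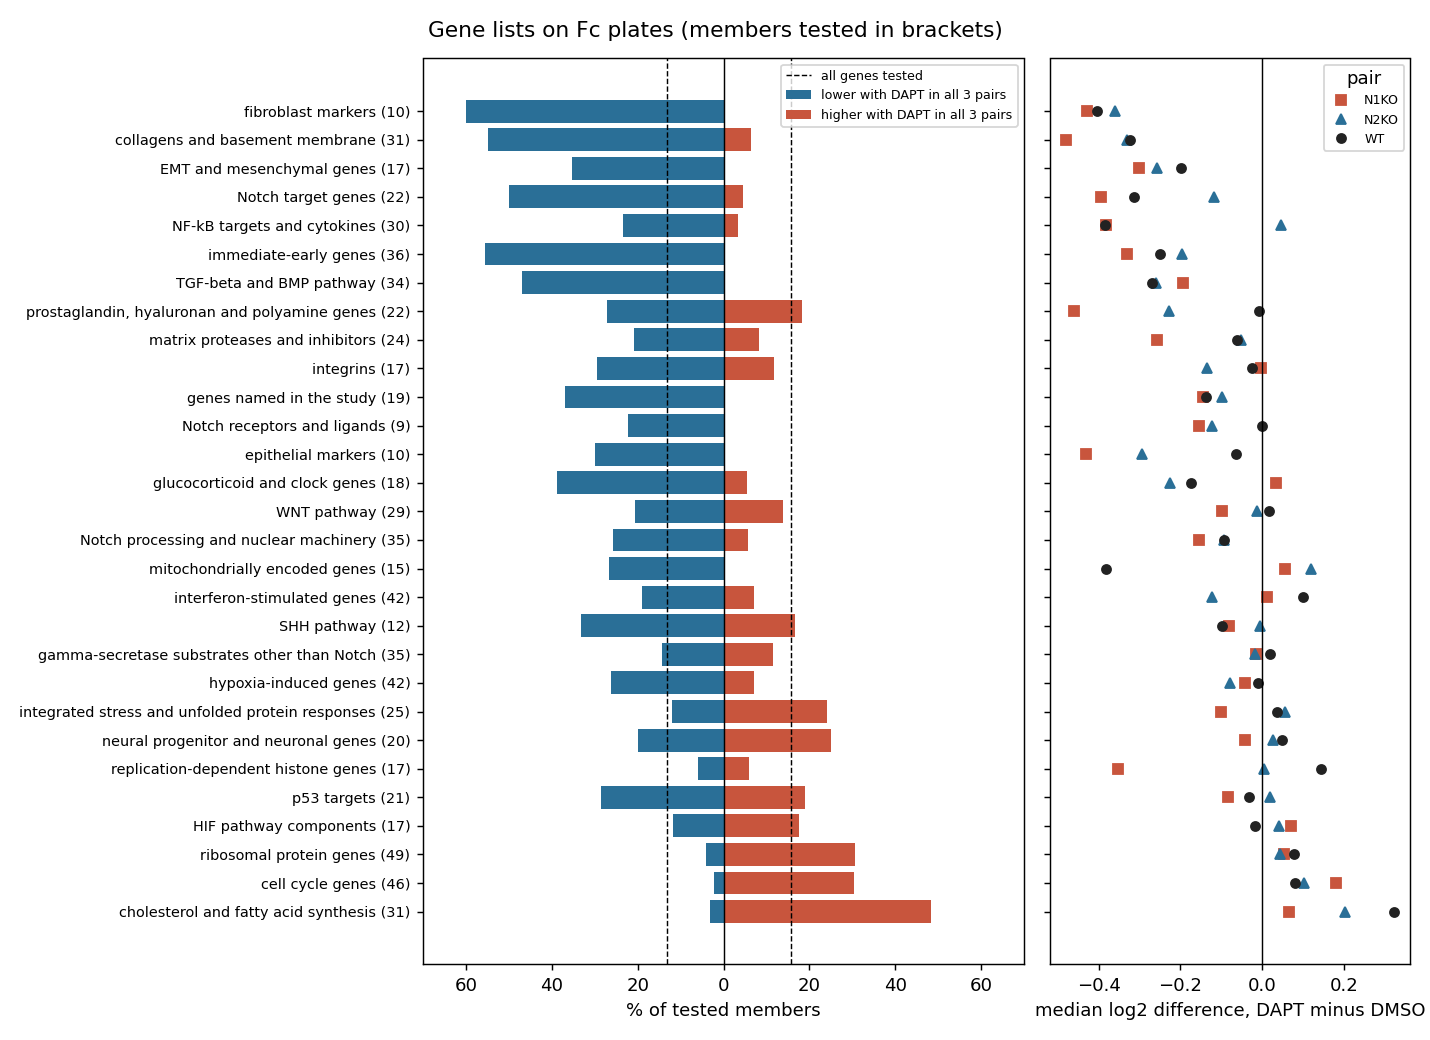
Left, percent of the tested members of each gene list that were lower (leftward bars) or higher (rightward bars) with DAPT in all 3 genotype pairs on Fc plates, with dashed lines at 13.3% and 15.8% for all genes. Right, the median log2 difference of the list in the N1KO, N2KO and WT pair, where collagens lay at -0.48, -0.33 and -0.32.

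Immediate-early genes, which respond to growth factor signals within minutes, were lower as a group in count, with small sizes. Of 36 tested, 0 were called, 20 were lower in all 3 pairs and 0 higher (13.3% and 15.8% of all genes), and the median was -0.22. Of the 28 members with a mean of at least 5 TPM, 13 were lower in all 3 pairs. The share of all genes at that minimum is not given here. EGR1, a zinc-finger factor induced through MAP kinases, had 4.60, 4.49 and 7.11 TPM with DAPT and 13.6, 11.8 and 16.4 TPM with DMSO (-1.24, adjusted p = 0.143), with no overlap. JUNB stood at 25.3, 2.45 and 15.7 TPM with DAPT and 33.8, 11.2 and 23.6 TPM with DMSO (-0.93, adjusted p = 0.815), and its difference was -0.33 without the N1KO library with DAPT. MYC, a growth regulator and Notch target, had 10.8, 28.2 and 54.8 TPM with DAPT and 46.1, 35.4 and 52.1 TPM with DMSO, so that its difference of -0.75 combined 0.07 in the N2KO pair and -0.32 in the N1KO pair with -1.99 in the WT pair. The adjusted p of MYC was 0.815, and its difference was -0.18 without the WT library with DAPT.

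Inflammatory genes had unlike medians in the 3 pairs, a difference that was not tested for the list. Of 30 NF-κB targets and cytokines, 0 were called, and 7 were lower in all 3 pairs and 1 higher (13.3% and 15.8% of all genes). The medians were -0.38 in N1KO, 0.05 in N2KO and -0.38 in WT. Without the N2KO pair, 22 of the 30 were lower in both remaining pairs (22.8% of all genes were), and without the WT pair 8 were (25.9% of all genes), as were 9 without the N1KO pair (25.2% of all genes). IL6 had 159, 159 and 298 TPM with DAPT and 376, 328 and 414 TPM with DMSO (-0.91, adjusted p = 0.674), pair differences of -1.23, -1.04 and -0.47. IL8 had 451, 216 and 902 TPM with DAPT and 755, 412 and 923 TPM with DMSO (-0.57, adjusted p = 0.844). PTGS2, the inducible cyclooxygenase, differed evenly, with 32.5, 47.1 and 49.0 TPM with DAPT and 58.7, 77.7 and 86.9 TPM with DMSO (-0.78, adjusted p = 0.646). SAT1, which breaks down polyamines, had 53.2, 17.0 and 29.8 TPM with DAPT and 101, 42.7 and 44.9 TPM with DMSO (-0.92, adjusted p = 0.672).

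Neither HIF gene was called, and hypoxia-induced genes were lower in all 3 pairs more often than higher. EPAS1, which encodes HIF2α, had 15.24, 14.5 and 19.2 TPM with DAPT and 14.0, 11.3 and 34.6 TPM with DMSO, lower in the N2KO pair (-0.82) and higher in the N1KO (0.33) and WT pairs (0.12). The fitted difference was -0.12 (95% interval -0.63 to 0.39, adjusted p = 0.961). HIF1A had 224, 195 and 281 TPM with DAPT and 266, 215 and 289 TPM with DMSO (-0.14, 95% interval -0.40 to 0.11, adjusted p = 0.893). VEGFA, the angiogenic factor, differed by -0.12 (95% interval -0.43 to 0.20). Of 42 hypoxia-induced genes, 11 were lower in all 3 pairs (26.2%, against 13.3% of all genes) and 3 higher (7.14%, against 15.8%), with a median of -0.02. At an unadjusted p under 0.05, 5 of them were lower and 0 higher. PFKFB4, a glycolytic regulator, had 19.2, 20.3 and 18.4 TPM with DAPT and 26.6, 30.2 and 28.0 TPM with DMSO, without overlap (-0.53, adjusted p = 0.58). PFKFB3, a glycolytic enzyme of the same family, was lower in every pair as well (-0.48, adjusted p = 0.745). ARNT2, a partner of the HIF proteins, was higher in every pair (0.38, adjusted p = 0.747).

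The list of genes named by the study mixed genes from its other experiments with 8 that it took from these knockout lines (EEF1A2, ITGBL1, WISP1, HCLS1, DNER, PID1, GDA and ITGB4), and for those 8 these samples are not independent evidence. Of 19 tested, 0 were called, 7 were lower in all 3 pairs and 0 higher (13.3% and 15.8% of all genes), and the median was -0.14. WISP1, a member of the CCN family, had 2.29, 25.7 and 1.64 TPM with DAPT and 5.98, 69.5 and 1.54 TPM with DMSO, pair differences of -1.08, -1.40 and 0.06 (-0.81, adjusted p = 0.755). STUB1, EEF1A2, ITGBL1, HCLS1, DNER, PID1, GDA and ITGB4 differed by -0.27 to 0.30, with adjusted p-values of 0.881 to 0.996, and AREG was below the filter, at 0.716, 0.877 and 0.252 TPM with DAPT and 0.970, 0.819 and 1.03 TPM with DMSO.

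Lipid synthesis and cell cycle genes had medians above 0. Of 31 genes for cholesterol and fatty acid synthesis, 0 were called, 15 were higher in all 3 pairs (15.8% of all genes) and 1 was lower, with a median of 0.16. FDFT1, the squalene synthase, had 102, 119 and 134 TPM with DAPT and 73.6, 93.8 and 91.3 TPM with DMSO, without overlap (0.45, adjusted p = 0.237). The fatty acid elongase ELOVL6 had 12.4, 14.3 and 16.0 TPM with DAPT and 8.08, 9.62 and 11.3 TPM with DMSO (0.52, adjusted p = 0.612). ACACA, which makes malonyl-CoA, differed by 0.48 (adjusted p = 0.815). Among 46 cell cycle genes, 14 were higher in all 3 pairs and 1 lower (15.8% and 13.3% of all genes), with a median of 0.11. CDC25C, a phosphatase that opens mitosis, had 60.7, 77.9 and 65.5 TPM with DAPT and 50.3, 48.4 and 49.4 TPM with DMSO (0.45, adjusted p = 0.709). The helicase gene MCM4 had 225, 647 and 215 TPM with DAPT and 205, 236 and 231 TPM with DMSO, a value that rested on the N1KO library with DAPT. Of 49 ribosomal protein genes 15 were higher in all 3 pairs and 2 lower (15.8% and 13.3% of all genes), with a median of 0.02. Reads of this family can match processed copies.

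The 3 genotypes were then compared in their response. Across all genes the pair differences were nearly unrelated, with Pearson's r of -0.01 between WT and N1KO, 0.06 between WT and N2KO and 0.08 between N1KO and N2KO, as a description across genes that share depth and normalization within a library. On Jagged1 plates the same 3 values were 0.18, 0.11 and 0.08. The standard deviations of the pair differences on Fc plates were 0.59 in N1KO, 0.45 in N2KO and 0.50 in WT. Where the difference between genotypes was tested over both plates, N1KO differed from WT for 2 genes (0.0114%) and N2KO from WT for 0 genes (0.0%). In the second case 592 of 17621 genes had an unadjusted p under 0.05, where 5% would be expected with no difference at all. With 1 genotype pair left out at a time, an alternative chosen after seeing the data, 18 to 21 of 31 matrix genes, 17 to 24 of 34 TGF-β and BMP genes, 22 to 25 of 36 immediate-early genes and 12 to 16 of 22 Notch targets were lower in both other pairs, against 22.8% to 25.9% of all genes. For lipid synthesis 16 to 23 of 31 genes were higher in both, against 27.3% to 28.5%. A count over 2 pairs cannot be below that over 3. Without the N1KO pair, whose DAPT library had the lowest weight, the counts were 19, 24, 25, 12 and 23. For 14 of 22 Notch targets and 23 of 30 NF-κB genes the N2KO pair had the most positive difference, against 28.1% of all genes. Where all 3 pairs were lower, that was the smallest fall. In the N1KO, N2KO and WT pair JAG1 differed by -1.70, -0.71 and -1.65, HES1 by -0.95, -0.55 and -0.94, and INHBA by -0.83, -0.39 and -1.13. The response of N2KO minus that of WT over both plates was 1.34 for JAG1 and 0.45 for HES1, each with an adjusted p of 1.

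**Figure D3:**
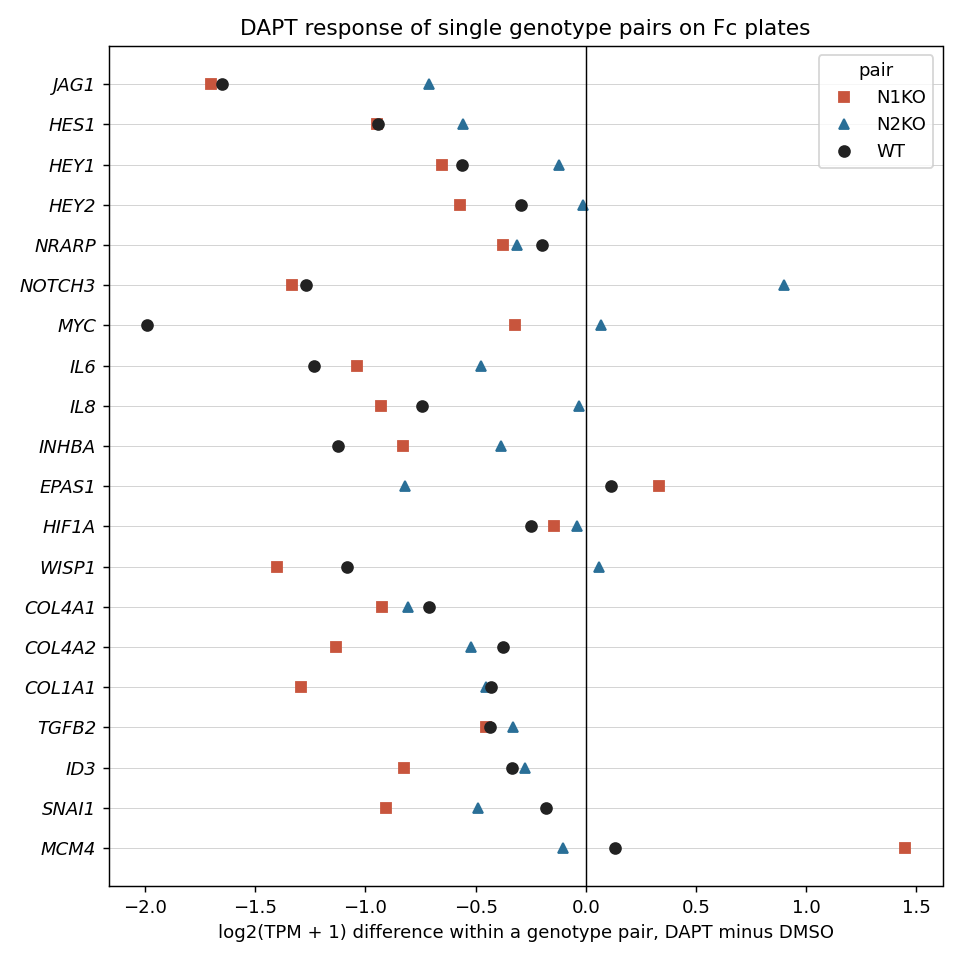
Difference of log2(TPM + 1), DAPT minus DMSO (horizontal axis), within the N1KO, N2KO and WT pair for 20 genes on Fc plates, 1 point per pair. The N2KO pair lay nearest to 0 or above it for JAG1 (-0.71), HES1 (-0.55) and IL8 (-0.03), and NOTCH3 stood at 0.90 in that pair, against -1.27 and -1.33 in the others.

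The Jagged1 plates gave a second comparison of DAPT with DMSO that shares no library with the first. There 0 genes were called higher and 5 lower (0.0284%), namely IL11, COL4A1, CHRNA9, HES1 and F2RL1, and 19.8% of genes were lower in all 3 pairs and 17.1% higher. COL4A1 was the 1 gene called on both plates. Both plates were fitted together over all 12 libraries with 1 error estimate per gene, so their p-values are not independent. From the 6 Fc libraries alone 0 genes were called. Of the 100 protein-coding genes with the smallest p on Fc, 80 had the same sign on Jagged1, against 52.5% of the 12604 protein-coding genes tested. Of the 68 among them that were lower on Fc, 57 were lower on Jagged1. The difference between plates was called for 3 genes (0.017%), the pair of NPIPA genes and CTD-2210P15.2.

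COL4A1 had 62.4, 109 and 38.3 TPM with DAPT and 133, 188 and 77.3 TPM with DMSO on Jagged1, a log2 difference of -0.95 (adjusted p = 0.0237) beside -0.81 on Fc. The difference of the 2 responses was 0.14 (95% interval -0.15 to 0.43). HES1 differed by -1.11 on Jagged1 (adjusted p = 0.0478) and by -0.82 on Fc, a difference of 0.29 (95% interval -0.10 to 0.69). HAS2, CTGF and ANGPTL2 had -1.10, -0.83 and -0.76 on Jagged1 beside -1.20, -0.9992 and -1.02 on Fc, and the intervals of all 3 differences included 0. IL11 was lower by more on Jagged1 (-2.51) than on Fc (-1.66), a difference of 0.85 (95% interval 0.12 to 1.59) that did not pass over all genes (adjusted p = 0.802). CHRNA9, an acetylcholine receptor subunit, had -1.76 on Jagged1 and -1.03 on Fc, and F2RL1, a protease-activated receptor, -1.13 on Jagged1 and -0.58 on Fc. For HEY1 and NOTCH3 the response on Jagged1 was -1.83 and -2.23, beside -0.44 and -0.57 on Fc, and neither difference passed (adjusted p = 0.802 for both). TMEM184B, a membrane protein chosen after its values were seen, had -0.17 on Jagged1 beside -0.75 on Fc (adjusted p of the difference = 0.802). Of the lists, 8 of 22 Notch targets, 12 of 31 matrix genes, 12 of 36 immediate-early genes and 8 of 34 TGF-β and BMP genes were lower in all 6 pairs, against 3.995% of all genes, and 7 of 31 lipid synthesis genes were higher in all 6, against 3.49%.

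**Figure D4:**
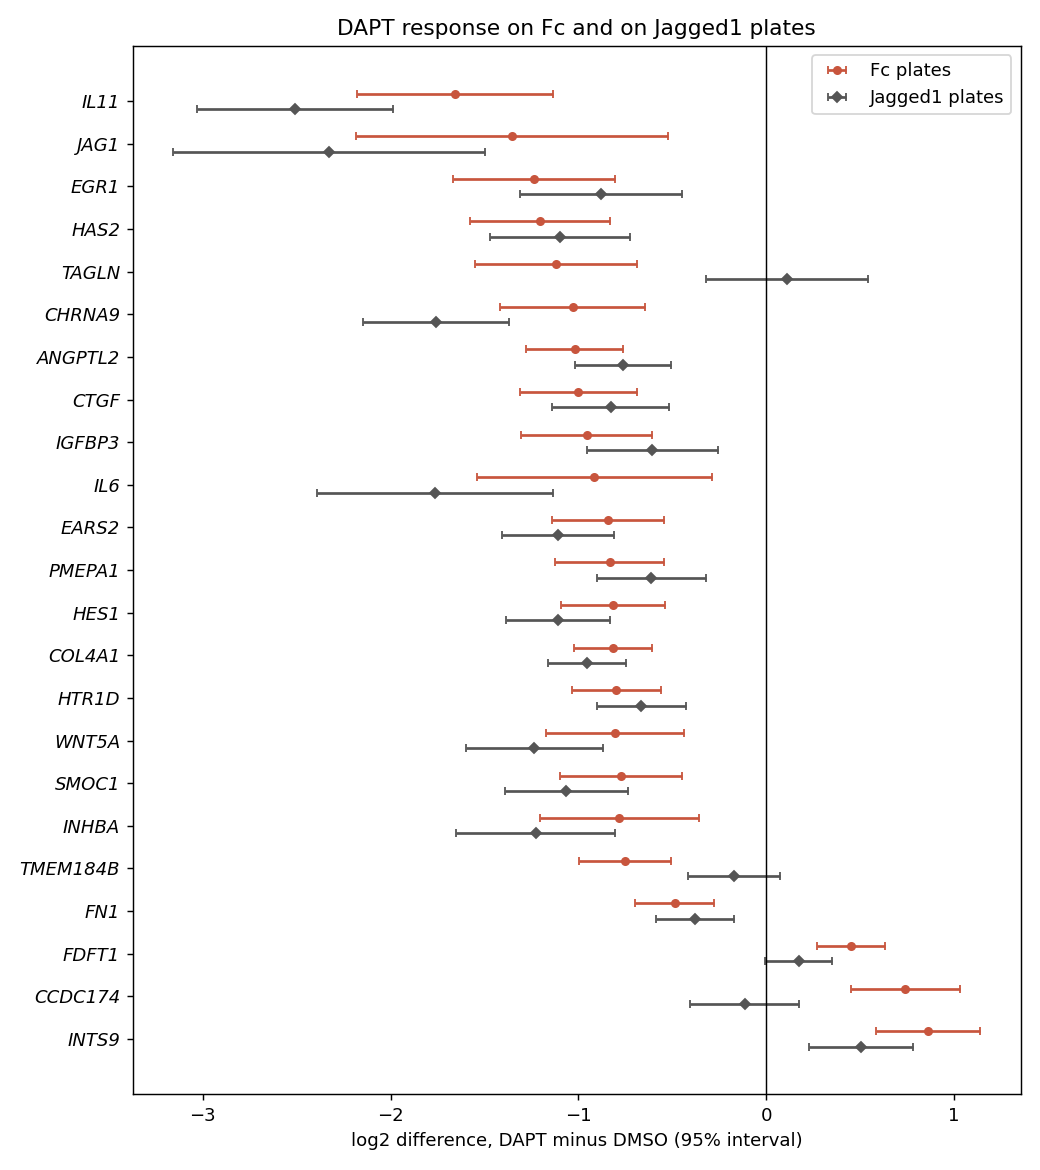
Log2 difference, DAPT minus DMSO, of 23 genes on Fc plates (circles) and on Jagged1 plates (diamonds), with 95% intervals from the fit. COL4A1 stood at -0.81 on Fc and -0.95 on Jagged1, IL11 at -1.66 and -2.51, while TAGLN and CCDC174 had intervals that left out 0 on Fc and included it on Jagged1.

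Summed markers of epithelial, blood, neural and glial cells overlapped between treatments. The fibroblast sum did not, but COL1A1 and COL1A2 made up 666 to 912 TPM of it with DAPT and 975 to 1310.4 TPM with DMSO, and the other 10 markers overlapped, at 315 to 421 TPM with DAPT and 363.8 to 452 TPM with DMSO. The 13 epithelial markers summed to between 622 and 1093 TPM with DAPT and between 779 and 862 TPM with DMSO, most of it the keratin gene KRT18. KRT17, a keratin of stratified epithelium, had 12.7, 7.67 and 5.30 TPM with DAPT and 48.2, 78.3 and 12.0 TPM with DMSO, the widest log2 difference of the marker genes (-2.03, adjusted p = 0.386). The 17 blood and endothelial markers summed to 45.0 to 88.1 TPM with DAPT and 76.1 to 86.4 TPM with DMSO, and 11 of them lay under 1 TPM in all 6 libraries. The 30 neural genes summed to 222 to 358.2 TPM with DAPT and 287 to 364.7 TPM with DMSO, and the 13 glial markers to 12.8 to 26.2 TPM with DAPT and 18.1 to 25.8 TPM with DMSO. In bulk libraries fewer cells of a kind and less RNA per cell cannot be told apart.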

How the data were processed

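Poly-A RNA of DAOY cultures had been made into stranded TruSeq libraries and sequenced as single 51-base reads, with bcl2fastq 2.17 of CASAVA and GRCh37 named in the submitters' processing notes. The aligner, the quantifier, the annotation, the strand setting and the handling of reads with several matches are not given in the sources used here. Gene values in TPM, as deposited by the authors, express each gene relative to its length, with 1 common total for every library. The FPKM values deposited by the authors are scaled for length and library size, and the coverage deposited by the authors is mean read depth per base. For the fits, coverage was scaled to a common total per library before its logarithm was taken. Depth came from the ratio of coverage to FPKM at its plateau. The tables held 63677 gene identifiers, repeated ones were summed, 1 identifier per symbol (the highest mean TPM) stood for a listed gene, and GENCODE v29 gave types for 52526.

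Values were analysed as log2(TPM + 1) for 17621 genes with a mean of at least 1 TPM over 12 libraries, in R 4.3.3 with limma 3.58.1 and a mean-variance trend, with additive terms for genotype and culture (6 residual degrees of freedom) and Benjamini-Hochberg adjustment over all genes. The interaction model had 4. Genotype pairs the libraries, since both come from 1 cell line by the labels, and deviations from the culture means correlated at 0.43, 0.54 and 0.54 within a genotype. The procedure was tested on simulated data. Members, gene lists (31) and rules were chosen with earlier results of these data known. Named genes are those the study names, up to 12 called rises and falls with the same sign in all pairs (filled to 6 by the smallest p), each list's called or 3 widest members, and the 5 smallest p-values for the difference between plates. Clone names and pseudogenes were left out of the second group, and COL4A2, COL1A2, FN1, EARS2, SKIL, IGFBP3, CHRNA9, F2RL1, TMEM184B, PDXP, RPL17P50, KRT18, SOX9, ZIC1, CYR61, COL12A1, COL8A1, HEY2, the γ-secretase subunits, RBPJ and the called pseudogenes were added after the values were seen. Alternatives were other pseudocounts, filters and scales, library weights and left-out libraries. Leaving out a genotype pair from the list counts was added after seeing the data. Some genes that the rule names are not reported here.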

Additional observations from a re-analysis of the deposited data

Results flagged for a closer look

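The DAPT response differed between Fc and Jagged1 plates by the test of the difference for NPIPA2 and NPIPA3 (limma adjusted p = 0.000245 for each) and for CTD-2210P15.2 (adjusted p = 0.00254). Each was listed at 0 in all libraries of 1 treatment on Fc. Over both plates, the DAPT response of N1KO differed from that of WT for PDXP (adjusted p = 0.00854) and RPL17P50 (adjusted p = 0.0257). PDXP was at 35.5, 0 and 34.2 TPM with DAPT and at 0 in all 3 DMSO libraries on Fc, and at 38.7, 0 and 33.0 TPM with DAPT and 32.8, 49.9 and 30.2 TPM with DMSO on Jagged1. RPL17P50, a ribosomal protein pseudogene, was above 0 only in the N1KO libraries with DAPT, at 13.4 TPM on Fc and 14.2 TPM on Jagged1. Both differences rest on libraries in which the gene is listed at 0, and how reads that match several places were assigned was not tested.

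Of the genes followed here, 5 moved 1 way in all 3 Fc pairs and the opposite way in all 3 Jagged1 pairs. How many of all genes did so was not counted, so the 5 are not read as more than the background. On Fc plates 13.3% of all genes were lower in all 3 pairs and 15.8% higher, and on Jagged1 plates 19.8% and 17.1%. The log2 response on Fc minus that on Jagged1 was 0.86 for CCDC174, 1.22 for IL6R, -0.56 for INSR, -1.23 for TAGLN and -0.86 for ACTA2. None of these differences passed the test over all genes (limma adjusted p of 0.765 to 0.802).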

How the results depend on the processing

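The counts of called genes, 3 higher and 3 lower, were the same with a pseudocount of 0.1, a mean TPM of at least 5 and median-centred libraries. They were 6 and 6 without a filter, 10 and 24 with library weights, and 0 and 0 from the 6 Fc libraries alone. In that last fit 2 residual degrees of freedom remained. There 1080 of 17621 genes had an unadjusted p under 0.05, where 5% would be expected with no difference. Leaving out the 4 WT libraries gave 5 higher. With 1 Fc library left out at a time, 2 to 3 genes were called higher and 1 to 5 lower, and 3 to 5 differed between plates. The fewest falls, 1, came without any DMSO library or the N1KO library with DAPT, and the most, 5, without the N2KO library with DAPT. Without the genotype pairing (no replicate block) the counts were 2 and 1. With a pseudocount of 0.1, 1 gene differed between N1KO and WT. The cause of these shifts was not tested.

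ANGPTL2 had an adjusted p of 0.0516 on FPKM and 0.0982 on coverage. With library weights, 14 more of 41 genes followed here were called, HAS2, IL11, CTGF, EGR1, PMEPA1 and HTR1D among them. Over all 17621 genes, 34 were called in that setting. Many of the 41 were chosen for small p-values or after their values were seen, so their share is not that of genes at large. The weights ran from 0.256 for the N1KO library with DAPT to 4.75 for the N2KO library with DAPT, so that 1 library counted far more than the others. No called difference changed sign in any setting. EPAS1 turned positive without either N2KO library on Fc (0.08 without DMSO, 0.13 without DAPT) or without all N2KO libraries (0.22), and NOTCH3 with library weights (0.31), none of them called. With 1 library per combination, a 95% interval reached a median of 0.39 on the log2 scale to either side, which limits what a single gene can show.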

Other observations

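Sonic hedgehog signalling drives 1 class of medulloblastoma. Of 12 pathway genes tested on Fc plates, 4 were lower with DAPT in all 3 pairs and 2 higher (13.3% and 15.8% of all genes). Of these 12, 0 were called, and the median log2 difference was -0.05. HHIP, an inhibitor and target of the pathway, had 6.74, 7.43 and 9.69 TPM with DAPT and 11.7, 12.1 and 13.7 TPM with DMSO (limma adjusted p = 0.613), and the co-receptor gene BOC differed by -0.66 (adjusted p = 0.675). The ligand gene SHH stood at 2.38, 0.825 and 9.98 TPM with DAPT and 0.534, 0.492 and 8.46 TPM with DMSO (0.55, adjusted p = 0.747). Among 18 glucocorticoid and clock genes, 7 were lower in all 3 pairs and 1 higher (13.3% and 15.8% of all genes). KLF9, a zinc-finger factor, had 9.54, 6.50 and 6.76 TPM with DAPT and 16.5, 10.5 and 11.6 TPM with DMSO (-0.68, adjusted p = 0.747), beside -1.67 on Jagged1 plates. The kinase gene SGK1 differed by -0.60 on Fc (adjusted p = 0.734) and 0.06 on Jagged1.

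Among 42 interferon-stimulated genes, 8 were lower in all 3 pairs and 3 higher (13.3% and 15.8% of all genes), with a median of -0.05. CDKN1A, the cell cycle inhibitor p21, had 53.2, 32.6 and 76.3 TPM with DAPT and 119, 49.9 and 93.8 TPM with DMSO (-0.68, adjusted p = 0.646). WNT5A, a non-canonical WNT ligand, had 55.5, 93.1 and 61.1 TPM with DAPT and 113, 159 and 95.2 TPM with DMSO, without overlap (-0.80, adjusted p = 0.43), beside -1.23 on Jagged1. L1CAM, a neural adhesion gene with 2 identifiers in the tables, differed by -0.9963 on TPM and by -0.10 on coverage. The processed transcript RP11-618G20.1, on chromosome 14, had 0, 3.73 and 5.73 TPM with DAPT on Fc and was listed at 0 in the 3 DMSO libraries, while on Jagged1 it was at 0 with DAPT and at 6.24, 6.53 and 10.3 TPM with DMSO.

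The mitochondrial gene MT-ND4 lay between 1.61 and 2.04 TPM in 5 of the Fc libraries and at 3488 TPM in the N2KO library with DMSO, and on Jagged1 plates it stood at 2772 and 3022 TPM in the WT libraries. MT-ATP6 was at 10.8, 1706 and 1987 TPM with DAPT and 2184, 5.85 and 1829 TPM with DMSO. Neither was read as a response to DAPT.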
